A study of Mus musculus with 12 samples.

Results

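The genes described are the protein-coding genes of the mouse Wnt and fibroblast growth factor (Fgf) families. They were chosen by name, as every protein-coding RefSeq gene whose symbol starts with Wnt or Fgf followed by a digit. This gave 41 genes, 19 Wnt and 22 Fgf, of 21631 protein-coding genes on chromosomes 1 to 19 and X. A matching symbol of another kind, the long noncoding RNA Fgf2os, was left out. The study used Cut & Run, which cuts and sequences the DNA around an antibody's target, with antibodies to MLL4 (an H3K4 methyltransferase), H3K4me1 and H3K4me3. The cells were mouse embryonic fibroblasts, connective tissue cells grown from embryos, labelled WT or fbxw7 KO. Each of the 3 antibodies had 2 libraries per genotype, 12 libraries in all. Strain, embryo age, the deleted part of Fbxw7 and whether the knockout line is 1 clone are not given in the sources used here.

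Wnt proteins are secreted lipid-modified ligands. They bind Frizzled receptors, and in the canonical branch stabilise β-catenin, which then activates genes with Tcf/Lef factors. Most Fgf proteins are secreted ligands of tyrosine kinase receptors that act through Ras and MAP kinase, whereas Fgf11 to Fgf14 stay in the cell. For brevity all genes of both families are called ligand genes here, Fgf11 to Fgf14 included. Embryonic mesenchyme, the tissue fibroblasts come from, makes several of these ligands as signals to neighbouring epithelium. H3K4me3 marks active promoters and H3K4me1 is common at enhancers. Many developmental genes with CpG-rich promoters carry H3K4me3 even at low activity.

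A gene was said to carry a mark in a library when a peak overlapped it or the 1 kb beyond either end by at least 1 bp. A gene with peaks in both WT and neither KO library is called WT-only, and the reverse KO-only. A gene without a peak may still carry the mark below the level at which peaks were called. Fewer cells with the mark and less of it per cell cannot be told apart in these bulk libraries.

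The H3K4me3 libraries differed in depth and list length in the same direction as the counts given here. WT replicate 1 held 11319701 filtered fragments and 17460 peaks, against 6185767 fragments and 16078 peaks in WT replicate 2. The KO libraries held 5519477 and 5938102 fragments and 10397 and 11281 peaks. H3K4me1 lists were closer in length, with 62065 and 56616 peaks for WT against 59908 and 53120 for KO. The part of depth and list length in the results was not tested beyond the comparisons with lists of equal length given with them. Fibroblast markers carried H3K4me3 at 18 of 18 genes in both WT libraries and at 12 and 13 in KO. Of 40 markers of epithelial, endothelial, haematopoietic, neural, pluripotent and muscle cells, 10 and 9 carried it in WT and 1 and 0 in KO. Cdh1, Pecam1, Ptprc, Pou5f1 and Myod1 carried it in no library. From the same lists, Kdr carried it in both WT libraries and KO replicate 1. Vwf, Spi1 and Esrrb carried it in both WT libraries only, and Epcam in WT replicate 1 only. Of the 7 neural markers, 5 were WT-only, and the part of this in the ligand genes was not tested. The MLL4 lists were short, with 60 and 69 peaks for WT against 49 and 40 for KO, and 0 of the 41 genes had an MLL4 peak within 50 kb. Lists this short reach few genes of any kind, and no share over all genes was taken, so the 0 is not read as a trait of the ligand genes.

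Promoter sequences show how unlike the ligand genes are at the starts where the marks were scored. The RefSeq table of promoters (GRCm38.p6, the coordinates of mm10) held 31 of the 41 genes. The others were Fgf1, Fgf8, Fgf15, Fgf16, Fgf17, Fgf20, Wnt5a, Wnt7b, Wnt8a and Wnt10a. Shown are the 3 genes with H3K4me3 in all 4 libraries (Fgf10, Fgf9 and Wnt9a) and the 3 WT-only genes with the most H3K4me3 cover (Fgf7, Wnt11 and Fgf18). Each runs 5′ to 3′ from 250 bases before to 50 bases after the start, and capitals mark CpG dinucleotides. The regions are chr13:118714449-118714748 (plus strand) for Fgf10, chr14:58072436-58072735 (plus) for Fgf9 and chr11:59306680-59306979 (plus) for Wnt9a. Those of the WT-only genes are chr2:126034408-126034707 (plus) for Fgf7, chr7:98838595-98838894 (plus) for Wnt11 and chr11:33147351-33147650 (minus) for Fgf18.
Fgf10: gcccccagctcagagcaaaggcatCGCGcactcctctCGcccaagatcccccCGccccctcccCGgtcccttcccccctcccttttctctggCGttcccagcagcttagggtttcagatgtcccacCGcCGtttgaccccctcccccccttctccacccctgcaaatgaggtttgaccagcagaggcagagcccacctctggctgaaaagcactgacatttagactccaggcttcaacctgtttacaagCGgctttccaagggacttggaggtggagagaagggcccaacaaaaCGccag
Fgf9: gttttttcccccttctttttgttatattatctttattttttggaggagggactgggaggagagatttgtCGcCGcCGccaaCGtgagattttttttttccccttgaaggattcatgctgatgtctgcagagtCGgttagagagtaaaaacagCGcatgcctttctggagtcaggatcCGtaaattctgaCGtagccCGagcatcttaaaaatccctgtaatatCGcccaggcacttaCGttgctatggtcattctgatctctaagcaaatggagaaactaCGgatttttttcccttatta
Wnt9a: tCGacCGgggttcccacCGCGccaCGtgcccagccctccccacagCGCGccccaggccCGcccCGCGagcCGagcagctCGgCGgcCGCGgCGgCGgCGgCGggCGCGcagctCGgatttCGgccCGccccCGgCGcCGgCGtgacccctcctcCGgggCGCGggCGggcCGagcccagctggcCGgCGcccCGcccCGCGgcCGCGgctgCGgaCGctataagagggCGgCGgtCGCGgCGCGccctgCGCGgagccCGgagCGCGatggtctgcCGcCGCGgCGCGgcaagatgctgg
Fgf7: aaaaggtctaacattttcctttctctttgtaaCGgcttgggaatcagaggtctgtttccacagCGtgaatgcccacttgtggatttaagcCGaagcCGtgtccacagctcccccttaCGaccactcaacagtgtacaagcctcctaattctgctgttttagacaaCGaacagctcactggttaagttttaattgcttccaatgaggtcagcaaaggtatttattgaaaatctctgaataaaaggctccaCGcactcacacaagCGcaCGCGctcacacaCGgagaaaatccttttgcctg
Wnt11: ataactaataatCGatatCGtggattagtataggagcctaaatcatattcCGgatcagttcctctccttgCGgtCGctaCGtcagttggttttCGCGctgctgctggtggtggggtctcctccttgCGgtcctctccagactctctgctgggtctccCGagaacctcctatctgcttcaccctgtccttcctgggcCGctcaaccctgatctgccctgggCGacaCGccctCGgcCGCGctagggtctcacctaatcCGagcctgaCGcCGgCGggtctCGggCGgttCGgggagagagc
Fgf18: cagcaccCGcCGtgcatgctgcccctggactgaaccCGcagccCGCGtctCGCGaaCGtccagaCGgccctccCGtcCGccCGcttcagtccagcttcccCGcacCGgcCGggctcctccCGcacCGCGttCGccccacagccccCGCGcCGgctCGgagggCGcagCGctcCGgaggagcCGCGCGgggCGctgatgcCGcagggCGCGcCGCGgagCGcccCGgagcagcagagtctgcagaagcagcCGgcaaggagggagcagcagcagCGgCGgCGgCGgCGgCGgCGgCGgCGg

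The promoters of Fgf10, Fgf9 and Fgf7 held 10, 12 and 11 CpG in their 300 bases, and those of Wnt11, Fgf18 and Wnt9a held 23, 47 and 58. CpG number did not sort genes with H3K4me3 in all 4 libraries from WT-only genes among these 6. For the comparisons here and the motifs below, each ligand gene gave 1 start, where it had several that with the most WT H3K4me3. The 21045 promoters were not chosen by the mark and can include several starts of a gene, so the 2 sides are unlike. Over the 31 ligand genes the median was 24 CpG, against 13 over all 21045 promoters. The ratio of observed to expected CpG passed 0.6 in 22 of 31 (71.0%), against 48.1% of all promoters. Among genes past that ratio, 15 of 22 ligand genes (68.2%) carried H3K4me3 in at least 1 library, against 92.2% of 8882 genes. Among genes at 0.6 or under, 5 of 9 ligand genes (55.6%) did, against 29.5% of 8392.

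Short motifs were counted on both strands as plain letters, which describe a sequence and are not sites of binding. GGGCGG, the letters of the GC box, which itself holds a CpG, was in 22 of 31 ligand promoters (71.0%) and in 46.7% of all. TATAAA was in 2 of 31 (6.45%) against 12.7%, and CCAAT was in 10 of 31 (32.3%) against 38.5%. CTTTGAT, the Tcf/Lef letters, was in 1 of 31 (3.23%) against 3.25%, and TGANTCA, the AP-1 letters, was in 2 of 31 (6.45%) against 7.04%.

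H3K4me3 was called at 23 and 20 ligand genes in WT and at 5 and 7 in KO. Of all protein-coding genes, 61.1% and 58.7% were called in WT, and 45.1% and 47.7% in KO. The means were 21.5 ± 2.12 and 6 ± 1.41 genes (SD, n = 2 libraries each), a difference of -15.5. The 2 genotypes did not overlap, but with 2 libraries against 2 the exact two-sided permutation p is 0.333, the smallest it can be. Wnt genes numbered 10 and 8 in WT against 1 and 3 in KO, and Fgf genes 13 and 12 against 4 and 4. Peaks over ligand genes covered 39826 and 26349 bp in WT and 3486 and 4429 bp in KO. As a share of all bases in each list this was 0.181% and 0.150% in WT and 0.0558% and 0.0611% in KO (exact permutation p = 0.333). When each list was trimmed to its 10397 best peaks by −log10 q, the length of the shortest, the counts were 6 and 4 genes in WT and 5 and 6 in KO, which overlap. With lists of that length ranked by pileup instead, a ranking chosen after seeing the data, the counts were 6 and 6 against 5 and 6. The share of bases then stood at 0.0901% and 0.0823% in WT and 0.0558% and 0.0485% in KO, without overlap (exact permutation p = 0.333).

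Over the 4 libraries, 23 of the 41 genes (56.1%) carried H3K4me3 at least once, 10 Wnt and 13 Fgf, near the 61.4% of all protein-coding genes. Of these 23, 11 were WT-only (47.8%), against 12.6% of all genes with a peak. All 4 libraries held a peak at 3 of the 23 (13.0%), against 68.1%. KO-only genes numbered 0, where the background was also 0%. The 11 WT-only genes were Wnt2b, Wnt4, Wnt6, Wnt11, Wnt16, Fgf7, Fgf12, Fgf15, Fgf16, Fgf18 and Fgf23. Another 9 had other patterns and 18 had no peak in any library. In lists of equal length by −log10 q, Fgf10 alone held a peak in all 4 libraries, where 72.1% of all genes with a peak did. There 11 ligand genes had a peak, of which Fgf23 was the 1 WT-only gene (9.09%, background 3.46%). Fgf9 was the 1 KO-only gene (9.09%, background 1.25%). KO replicate 1, the shortest list, lost no peak to trimming, and its Fgf9 peak stood at percentile 0.798 by −log10 q. The best WT peaks of Fgf9, which trimming removed, stood at percentiles 30.6 and 27.9 of their full lists. With only peaks of −log10 q at least 10, a cutoff that depends on depth, 10 of 20 ligand genes were WT-only (50%), below the 63.1% of all genes with such a peak, and 0 were called in all 4 libraries (7.34%). Only 3 of these 10 (Fgf23, Wnt11 and Wnt16) were among the 11 WT-only genes of the full lists.

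**Figure D1:**
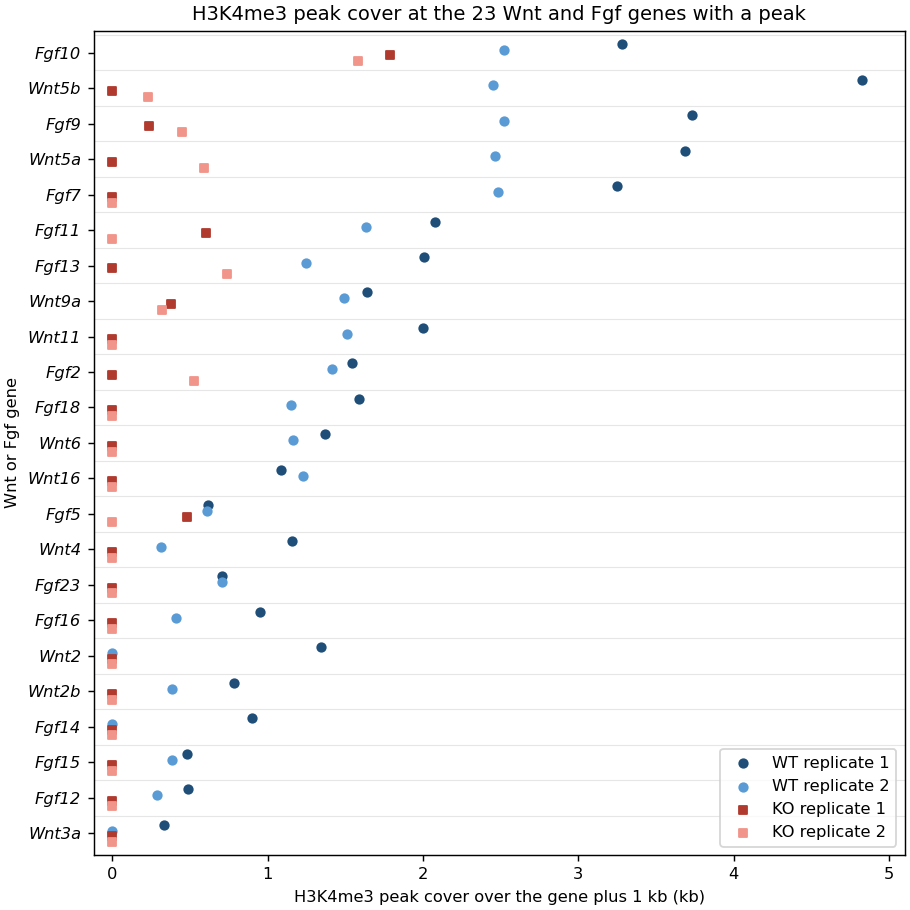
Each row is 1 of the 23 genes with an H3K4me3 peak, and the horizontal axis is the length of the gene plus 1 kb covered by peaks, in kb, in each of the 4 libraries (circles WT, squares KO). The KO squares lie at 735 bp or below for all rows but Fgf10, whose KO libraries had 1790 and 1584 bp covered.

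Fgf10, a mesenchymal ligand needed for limb and lung buds, kept the longest H3K4me3 cover in KO of the 41 genes. Peaks covered 3278 and 2519 bp in WT and 1790 and 1584 bp in KO, so WT was higher without overlap. The main peak of WT replicate 1 spanned chromosome 13 from 118714704 to 118717034, starting at the promoter shown above. Its pileup, the number of fragments over the summit, stood at percentile 98.2 of that list. The pileup percentiles were 89.5 in WT replicate 2 and 98.9 and 97.7 in KO, high in every library. By −log10 q the percentiles were lower, at 71.9 and 45.9 in WT and 58.3 and 59.1 in KO. A second site lay 17779 bp past the start in WT replicate 1 (118731901 to 118732847), and a peak was called there in WT replicate 2 and KO replicate 2 also.

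Fgf9, a ligand made in several embryonic tissues, had 3734 and 2522 bp of H3K4me3 in WT and 236 and 445 bp in KO. In WT replicate 1 a peak ran over the start, from 58071174 to 58073222 on chromosome 14. The peak of KO replicate 1 ran from 58072158 to 58072393 and did not reach the start. Both KO peaks ended upstream of the promoter window shown. Wnt9a, which acts in joint formation, had 1641 and 1490 bp in WT and 375 and 322 bp in KO. Its KO peaks lay 585 and 319 bp past the start, inside the WT peak from 59306904 to 59308070. Both genes were thus called in every library with shorter cover in KO. The Fgf9 call in KO replicate 1 was near the cutoff, with a −log10 q of 2.37.

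Fgf7, also called keratinocyte growth factor, is made by mesenchyme and acts on epithelium. Its H3K4me3 peaks covered 3251 and 2481 bp in WT and 0 and 0 bp in KO. The longest spanned chromosome 2 from 126034791 to 126037500, from just past the Fgf7 start and within the overlapping gene Fam227b. By pileup it stood high in both WT lists, at percentiles 99.1 and 92.4, with 167 and 65 fragments. By −log10 q it stood at percentiles 51.4 and 25.6, with 3.21 and 2.74 fold over its local background (the authors' values). Among all genes whose WT replicate 2 pileup lay in the highest of 4 equal bins of that list, 1.24% (56 of 4504) were WT-only. Fgf7 was 1 of 4 ligand genes there, with Fgf9, Fgf10 and Wnt5a, and the only one of these 4 without a KO peak. It was also the 1 WT-only ligand gene when lists of equal length were ranked by pileup.

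Among the other WT-only Fgf genes, Fgf18 acts in bone and lung. Its cover was 1589 and 1149 bp in WT, from 33147222 to 33148497 of chromosome 11 in replicate 1, over the promoter shown. Fgf16 had 952 and 411 bp, and Fgf12, of the group that stays in the cell and binds sodium channels, had 486 and 289 bp. These 3 genes and Fgf15 and Fgf23 had 0 bp in both KO libraries. Fgf15, a hormone of the gut, had 482 and 382 bp, and Fgf23, a bone hormone controlling phosphate, had 703 and 703 bp. The Fgf23 peak had the same borders in both WT libraries, chromosome 6 from 127079774 to 127080476, and its summits lay 7243 and 7216 bp past the start, not at the promoter.

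WT-only Wnt genes had 1998 and 1513 bp (Wnt11), 1366 and 1164 bp (Wnt6) and 1087 and 1227 bp (Wnt16) in the 2 WT libraries. Wnt4, needed for kidney and female reproductive tract development, had 1155 and 313 bp, and Wnt2b had 782 and 382 bp. All 5 had 0 bp in both KO libraries. Wnt11, which acts mainly outside the β-catenin branch, had 2 peaks in each WT library. One lay over the promoter shown (98838196 to 98838935 in WT replicate 1), and the other (98835527 to 98836784) within 1 kb of the start of Gm33770 as well.

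The genes called in both WT and 1 KO library included Wnt5a, the main ligand of the branch outside β-catenin. It had 3687 and 2462 bp in WT and 0 and 588 bp in KO. Its pileup was 154 and 74 fragments in WT, percentile 97.3 of the WT replicate 2 list, and 23 fragments in KO replicate 2, percentile 83.8 of that list. By −log10 q Wnt5a stood at percentiles 38.3 and 12.6 of these 2 lists. Wnt5b, its closest relative, had 4824 and 2447 bp in WT and 0 and 230 bp in KO, but several of these peaks, the KO one included, lie within 1 kb of the start of Fbxl14. Fgf2, or basic Fgf, had 1542 and 1411 bp in WT and 0 and 525 bp in KO, and its peak is also at the start of Fgf2os. Fgf13, a channel-binding member, had 2007 and 1245 bp in WT and 0 and 735 bp in KO. In each of its 3 libraries with a call it had 2 peaks on chromosome X, each near a listed start, at 59133484 to 59134582 and 59566920 to 59567827 in WT replicate 1. KO replicate 2 thus held both of the sites called in WT. Chromosome X, which holds Fgf13 and Fgf16, took a smaller share of all H3K4me3 peaks in KO, by a factor of 0.633. Its share was 3.34% and 3.27% in WT against 2.03% and 2.15% in KO. The part of this in the calls at both genes was not tested.

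KO replicate 1 was the KO library with a peak at 2 genes. Fgf11 had 2078 and 1632 bp in WT and 604 and 0 bp in KO, at the starts of Chrnb1 and G630025P09Rik. Fgf5, which ends the growth phase of hair, had 613 and 607 bp in WT and 481 and 0 bp in KO. At 4 of the 23 genes, Fgf11, Wnt5b, Fgf2 and Wnt11, at least 1 peak thus lay within 1 kb of another gene's start, and such a peak could not be assigned to the ligand gene alone. The Fgf7 peaks lay within Fam227b as well, though not near its start. Only WT replicate 1, the deepest library, held a peak at Wnt2 (1346 bp), Fgf14 (896 bp) and Wnt3a (329 bp). The Fgf14 peaks lay inside the gene, from 124675790 to 124676104 and 124676374 to 124676954 of chromosome 14. They were near its upstream border at 124677686. The only start listed for Fgf14, at 124192546, lies deep within the gene. The nearer peak thus had its summit at -483303 bp from that start, where a negative distance is upstream. The 18 genes with no H3K4me3 peak in any library were Wnt1, Wnt3, Wnt7a, Wnt7b, Wnt8a, Wnt8b, Wnt9b, Wnt10a and Wnt10b, and Fgf1, Fgf3, Fgf4, Fgf6, Fgf8, Fgf17, Fgf20, Fgf21 and Fgf22.

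At all 20 ligand genes called in both WT libraries, the longer KO cover was below the shorter WT cover. This held for 98.2% of the 12644 genes called in both WT libraries, so the direction was common to nearly all genes. The median ratio of KO to WT cover was 0 over the 20 ligand genes and 0.370 over all 12644. The median of 0 follows from 11 of the 20 being WT-only and is no further measure.

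Around the gene start itself, 31 genes could be scored. H3K4me3 lay within 1 kb of the start at 17 and 16 of them in WT and at 4 and 5 in KO. At 17 of the 31 a peak was called in at least 1 library, beside 58.1% of all genes. A peak at any listed start of a gene counted. WT-only genes numbered 10 of these 17, against 13.5% of all genes with a peak there, and 3 (Fgf9, Fgf10 and Wnt9a) were called in all 4 libraries, against 66.5%. Fgf11 and Wnt5b joined the WT-only genes in this window, since their KO peaks lay farther off. H3K4me1 peaks lay within 1 kb of the start at 7 and 7 genes in WT and 8 and 4 in KO, and at 10 of the 31 in at least 1 library (background 23.5%). Of the 10 genes WT-only for H3K4me3 in this window, 3 and 3 had H3K4me1 at a start in WT against 3 and 2 in KO. No share over all such genes was taken. The H3K4me1 of Wnt5b, called in all 4 libraries, lay at another of its starts than its H3K4me3.

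**Figure D2:**
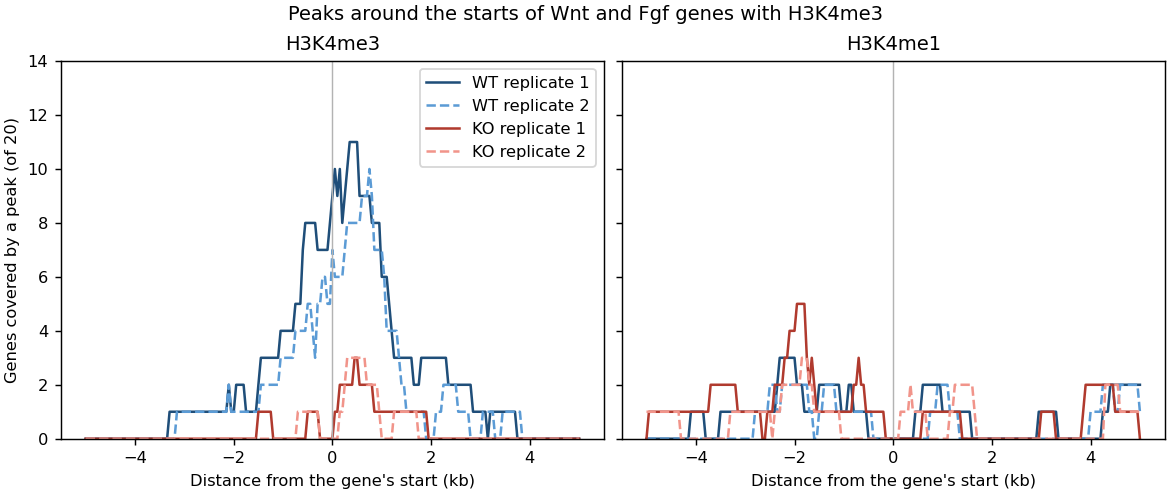
For the 20 genes with H3K4me3 and a known start, the lines count how many were covered by a peak at each distance from the start, in kb along the direction of the gene, in each library. At 500 bp past the start H3K4me3 covered 11 and 8 genes in WT and 3 and 3 in KO, and at the start itself H3K4me1 covered 0 in all 4 libraries.

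By −log10 q, though not by pileup at every gene, the ligand genes stood low in the WT lists. By the −log10 q of its best peak in the WT replicate 2 list, the median ligand gene of the 20 called in both WT libraries stood at percentile 27.2, with a range of 2.53 to 46.5. The median of all 12644 such genes was 64.4. In the WT replicate 1 list the medians were 30.9 and 67.5, and 4 of the 20 ligand genes (Fgf10, Fgf23, Fgf2 and Fgf7) stood above percentile 50 there. The list of WT replicate 2 was split into 4 bins of equal size by this rank. In the lowest bin 69.5% of all genes were WT-only (846 of 1218), and 6 of 8 ligand genes were. In the second bin 22.3% were (642 of 2874), and 5 of 12 ligand genes. No ligand gene lay in the upper bins, where 3.74% and 0.749% of genes were WT-only. No test was made of the shares within bins. Ranked by pileup instead, a view added after seeing the data, 9 of 12 ligand genes in the lowest bin were WT-only against 65.3% of all genes. In the second 1 of 4 was, against 14.9%, and in the third, where 2.95% of genes were WT-only, there was no ligand gene. In the highest, where 1.24% of genes were WT-only, 1 of 4 ligand genes was, Fgf7.

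**Figure D3:**
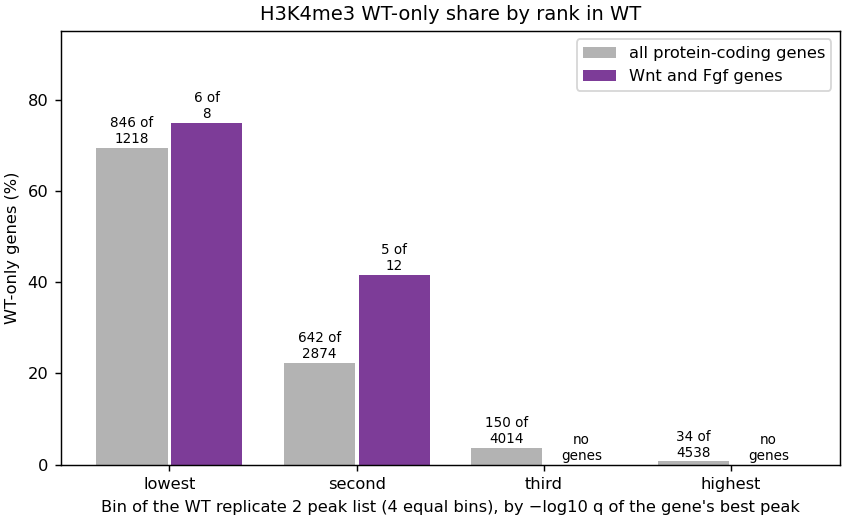
Bars give the percentage of genes called in both WT libraries that were WT-only for H3K4me3, by bin of the WT replicate 2 list ranked on −log10 q (grey, all protein-coding genes; purple, the 20 Wnt and Fgf genes). The share drops from 69.5% to 0.749% of all genes from the lowest to the highest bin, and the ligand genes are found only in the lower pair.

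H3K4me1 over the ligand genes was similar in number in the 2 genotypes. It was called at 26 and 24 genes in the WT libraries, where 47.5% and 44% of all genes were called. In the KO libraries it was called at 26 and 21, where 44.8% and 41.7% were. The group means were 25 ± 1.41 genes for WT and 23.5 ± 3.54 for KO (SD, n = 2 libraries each). The values overlap, and the exact permutation p is 1. Over the 4 libraries 31 of the 41 carried it at least once (background 59.1%), among them 10 of the 18 genes without H3K4me3. Peaks in all 4 libraries were found at 17 of the 31, against 51.8% of all genes with a peak. Of the 11 genes WT-only for H3K4me3, 5 carried H3K4me1 in all 4 libraries (Fgf7, Fgf15, Wnt4, Wnt6 and Wnt11). Of all protein-coding genes, whatever their H3K4me3, 30.6% did. No share over all genes WT-only for H3K4me3 was taken. Fgf5 was the 1 WT-only gene (background 4.69%), with 1 peak in each WT library and 0 in KO. No gene was KO-only (background 2.75%). Neither mark was called over 8 of the 41 genes (Fgf3, Fgf4, Fgf6, Fgf8, Fgf17, Fgf22, Wnt8b and Wnt10b). For this count and the 10 of 18 genes without H3K4me3, no share over all genes was taken, so neither is read as a trait of the ligand genes.

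The highest-ranked H3K4me1 peak over Wnt5b, chosen after its values were seen, lay at one of that gene's starts, also within 1 kb of the start of Gm40397. It spanned chromosome 6 from 119466847 to 119467881 in WT replicate 1. By −log10 q it stood at percentiles 91.1 and 95.5 of the WT lists and 98.8 and 92.1 of the KO lists. It was thus among the higher-ranked peaks of every H3K4me1 list, while no H3K4me3 peak of Wnt5b lay there.

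Within 50 kb, a span that can hold a gene's enhancers, all 41 genes had an H3K4me1 peak in at least 1 library, where 85.2% of all genes did. Of the 41, 34 had one in all 4 libraries (83.4% of all genes with a peak there). Wnt8b, with 2 and 2 peaks in WT against 0 and 0 in KO, was the 1 WT-only gene (background 2.02%), and 0 genes were KO-only (background 1.11%). Chromosome 19, which holds Wnt8b, took a smaller share of all H3K4me1 peaks in KO, by a factor of 0.903. The part of this in the Wnt8b counts was not tested. The 41 windows merge into 34, since 13 genes share a window with a neighbour of the same group, such as Wnt1 with Wnt10b. Together they held 177 and 150 H3K4me1 peaks in the WT libraries, 163.5 ± 19.1 (SD, n = 2), and 179 and 142 in the KO libraries, 160.5 ± 26.2 (SD, n = 2; exact permutation p = 1). The values overlap, and replicates of each genotype differed by more than the genotypes did.

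The genes with the most peaks within 50 kb were Fgf1, Fgf2 and Fgf10. Fgf1, or acidic Fgf, had 14 and 10 in WT against 11 and 12 in KO, without any H3K4me3 peak over the gene plus 1 kb. Its H3K4me1 peaks over the gene plus 1 kb all overlapped Arhgap26 as well. Fgf2 had 11 and 14 in WT against 11 and 11 in KO, and Fgf10 had 9 and 11 in WT against 13 and 10 in KO. Fgf7, without H3K4me3 calls in KO, had 8 and 5 H3K4me1 peaks in WT against 9 and 6 in KO. Over the gene plus 1 kb Fgf7 had 4 and 2 in WT against 6 and 2 in KO. The genotypes overlap or meet at all 4 genes.

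Of other genes with no H3K4me3 call, Fgf6 had 6 and 3 peaks within 50 kb in WT and 7 and 6 in KO. Wnt7b had 6 and 5 in WT against 6 and 3 in KO, and Fgf22 had 4 and 3 in WT against 7 and 5 in KO. Wnt1, which acts in the midbrain, had 5 and 6 in WT against 4 and 3 in KO. Over the 41 genes, 6 (14.6%) had fewer peaks within 50 kb in both KO than in either WT library, near the 16.6% of all genes. They were Wnt1, Wnt5b, Wnt8a, Wnt8b, Wnt10b and Wnt16, of which Wnt1 and Wnt10b share peaks. Another 3 (7.32%) had more, near the background of 7.25%: Fgf12, Fgf13 and Fgf22. Fgf12 had 1 and 0 in WT against 7 and 5 in KO, and Fgf13 had 4 and 1 against 6 and 6. These 2 genes span 595 and 523 kb, against a median of 21.9 kb over the 41, so their windows are wide. Wnt5b had 9 and 10 in WT against 6 and 4 in KO, and Wnt16 had 10 and 7 against 6 and 2. The genes named here for lying apart were picked by these values. Chromosomes 16 and 10, which hold Fgf12 and Fgf22, took larger shares of all H3K4me1 peaks in KO, by factors of 1.16 and 1.25. The part of this in the counts at both genes was not tested.

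**Figure D4:**
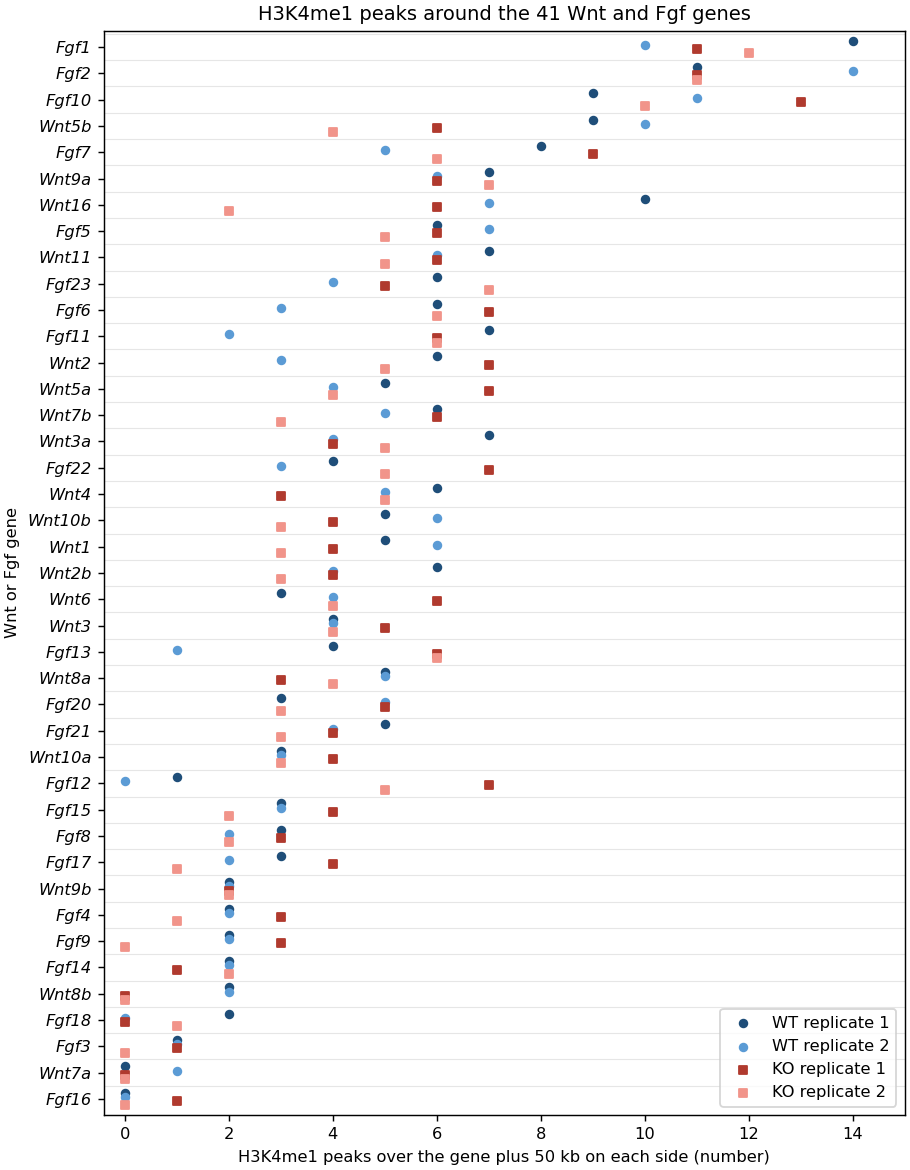
Each row is 1 of the 41 genes, and the horizontal axis is the number of H3K4me1 peaks within 50 kb of the gene in each library (circles WT, squares KO). The genotypes mix on most rows, and Fgf12 stands out with 1 and 0 in WT against 7 and 5 in KO.

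H3K4me1 peaks from the 4 libraries merged into 281 regions in these windows. All 4 libraries shared 68 of them (24.2%), against 28.7% of 94400 regions genome-wide. WT-only regions numbered 15 (5.34%, background 6.63%) and KO-only regions 16 (5.69%, background 5.37%). These shares lie near the background. Of the 16 KO-only regions, 4 lay around Fgf12, 2 around Fgf13 and 2 around Fgf6, of which 1 also lay around Fgf23. The windows of Fgf12 and Fgf13 are the wide ones described above.

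Genes that act with the ligands were taken from 8 lists of 91 genes. H3K4me3 was called in at least 1 library at 79 of them, 55 in all 4 libraries, 9 WT-only and 0 KO-only. Of all genes with a peak, as above, 68.1% were called in all 4 libraries and 12.6% were WT-only. Per library the 91 genes gave 79 and 77 calls in WT and 59 and 64 in KO.

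Wnt and Fgf receptors are the first of these lists. Of 16 Wnt receptors and co-receptors 12 were called in all 4 libraries and 1, Fzd3, was WT-only (1476 and 313 bp in WT). Fzd1 had 2403 and 2266 bp in WT and 1199 and 859 bp in KO. Of 7 Fgf receptors and co-receptors 2 were called in all 4, Fgfr1 and Fgfr2, and 3 in no library. Fgfr1 had 5145 and 3752 bp in WT and 604 and 698 bp in KO, with no overlap. Fgfr3 (1268 and 649 bp in WT) and Fgfrl1 (1400 and 1292 bp), which lacks the kinase domain, were WT-only. Fgfr3 was also KO-only for H3K4me1, with 0 and 0 peaks in WT against 1 and 1 in KO.

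Of 10 secreted Wnt antagonists, which keep Wnt from its receptors, 5 were called in all 4 libraries and 2 were WT-only. The WT-only genes were Sfrp2, with 1996 and 555 bp in WT, and Dkk1, with 715 and 623 bp. Of 12 genes of Wnt secretion and R-spondin signalling 4 were called in all 4, among them Porcn, which attaches the lipid to Wnt, with 1917 and 1488 bp in WT and 460 and 460 bp in KO. None of these 12 was WT-only. Of 16 intracellular Wnt pathway genes 11 were called in all 4, such as Ctnnb1, the gene of β-catenin, with 2246 and 1785 bp in WT and 499 and 1472 bp in KO. Tcf7 (685 and 635 bp in WT) and Nkd1 (984 and 579 bp) were WT-only.

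Downstream of Fgf receptors, 6 of 7 transduction genes were called in all 4 libraries, and Sos1, a Ras activator, was WT-only (2201 and 1420 bp in WT). Of 15 feedback and target genes 9 were called in all 4, such as Spry4, with 2758 and 2389 bp in WT and 1311 and 1380 bp in KO. Spry2, a feedback inhibitor, was WT-only with 3312 and 2638 bp in WT, cover close to that of Fgf7. Spred3 was KO-only for H3K4me1, with 1 and 1 peaks in KO. Of 8 genes of Fgf binding proteins and heparan sulfate 6 were called in all 4, among them Sdc1, with 2577 and 2230 bp in WT and 552 and 1371 bp in KO. No test of the lists against the ligand genes was made.

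**Figure D5:**
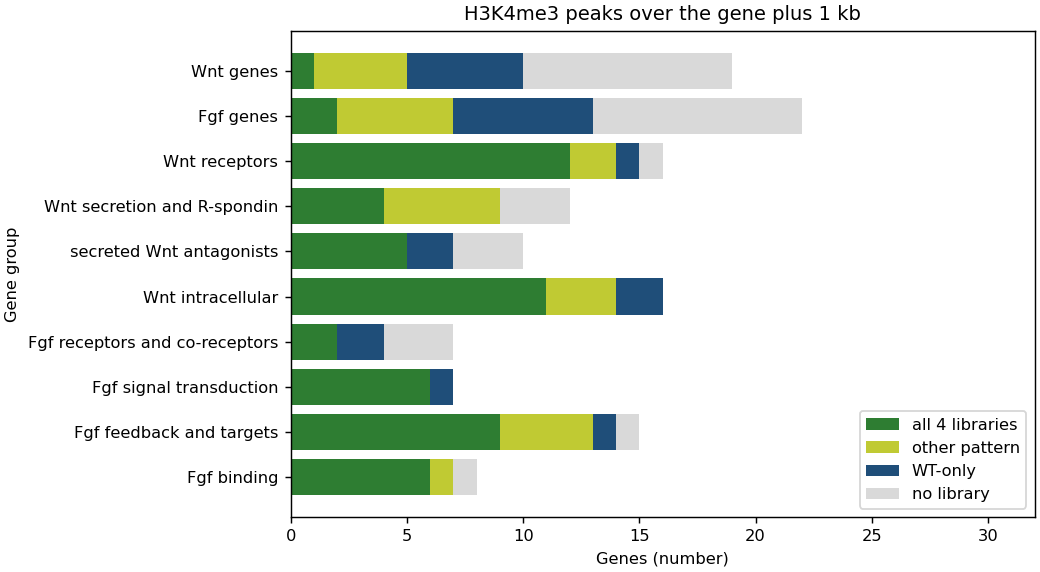
Bars give the number of genes of each group by H3K4me3 class over the gene plus 1 kb: called in all 4 libraries, another pattern, WT-only or in no library. The Wnt and Fgf genes have 1 and 2 genes in the first class, while 12 of 16 Wnt receptors fall in it.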

How the data were processed

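Cut & Run peak lists of 8 histone libraries were used, with the MLL4 lists checked for peaks near the genes. The authors ran MACS2 (2.1.0.20150731) on each library alone, per the file headers, at a q cutoff of 0.01, with a local background over 10000 bp and no control. The genome build was mm10, per the submitters' processing notes. Each deposited list gives, per the file headers, a pileup signal, which is the unscaled number of fragments at the summit, a −log10 q and a fold ratio over the local background. Here they served only to rank and filter peaks inside 1 list and to describe single peaks. Depth, the filtered fragments that the headers give, was 5519477 to 13627038, and duplicates were limited to 1 or 2 per position depending on the library.

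Gene positions were those of RefSeq on GRCm38.p6, in a table without strand. Starts and strand came from the RefSeq promoters. Where a ligand gene had several starts, that with the most WT H3K4me3 within 1 kb was printed and used for its CpG and motif counts. Overlap was counted from 1 bp with Python 3.11.15 and pandas 2.3.3, tested on simulated data. Values per library were compared by exact two-sided permutation over 6 assignments (smallest p 0.333). Of 19 measures, the smallest Benjamini-Hochberg adjusted p was 0.633. Nothing in the labels says that replicates came from separate cultures, so p measures only the spread between libraries. Counts of genes had no test and are given beside all protein-coding genes.

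Named were every gene with H3K4me3 in at least 1 library, and of the others the 5 with most H3K4me1 within 50 kb and those WT-only or KO-only for H3K4me1. Pathway genes were named when WT-only or KO-only, or as examples from the first 4 of each list in all 4 libraries. Genes named beyond this were chosen after their values were seen. The genes and lists were chosen with earlier results of these data known. Alternatives were lists of equal length, a −log10 q of at least 10, other flanks and leaving out each library.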

Additional observations from a re-analysis of the deposited data

How the results depend on the processing

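Equal list length changed the H3K4me3 results most. With lists ranked by −log10 q the KO minus WT difference in genes called turned from -15.5 to 0.5. The difference in the share of bases turned from -0.107 to 0.00806 percentage points. WT-only genes went from 11 of 23 (47.8%) to 1 of 11 (9.09%), while over all genes with a peak the share fell from 12.6% to 3.46%. KO-only genes went from 0 to 1 of 11 (9.09%), and over all genes with a peak from 0% to 1.25%. Ranking those lists by pileup, added after seeing the data, also left 1 WT-only gene (Fgf7, not Fgf23) but reversed no H3K4me3 difference. The differences were then -0.5 genes and -0.0341 percentage points, and KO-only genes numbered 0. With a −log10 q of at least 10, WT-only genes numbered 10 of 20 (50%), against 63.1% of all genes with a peak, and 3 of them were among the original 11. Leaving out 1 library at a time gave differences of -17 to -14 genes, -0.122 to -0.0912 percentage points and 11 to 15 WT-only genes. The cause of the reversals was not tested, although trimming removes peaks by construction.

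H3K4me1 differences had no stable direction. For genes called (-1.5) the value was 2.5 at a −log10 q of at least 10 and -4 to 1 with 1 library left out, positive without KO replicate 2. WT-only genes (1, Fgf5) numbered 0 at that cutoff, 0 with equal length by either ranking and 1 to 5 with 1 library left out, 5 without KO replicate 1 and 2 without WT replicate 1 or without WT replicate 2. KO-only genes (0) numbered 2 at the cutoff (Fgf14 and Wnt9a), 1 by pileup (Fgf12) and 0 to 3 with 1 library left out, 3 without KO replicate 2 and 2 without WT replicate 1. For peaks within 50 kb (-3) the value was 4 with equal length, 2 by pileup, 2.5 within 25 kb and -21.5 to 15.5 with 1 library left out, 15.5 without KO replicate 2 and 10.5 without WT replicate 1. Leaving out the 2 genes on chromosomes 10 and 16 moved it to -11 and changed no direction.

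With the replicate number as a replicate block, the paired difference in genes with H3K4me3 was -15.5 (exact permutation p = 0.5, the smallest possible). Same-numbered libraries had a correlation of deviations of -0.0182 for H3K4me3 and 0.214 for H3K4me1 over genes. With 2 pairs per mark and no label tying them, whether the numbers mark shared samples is not known, and the block changed no call.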
